A study of Mus musculus with 2 samples.

Results

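Among cells sorted from mouse brain as microglia, 227 of 14849 cells met a gate on 4 genes of granulocyte-monocyte progenitors and promyelocytes, the early myeloid cells that normally reside in bone marrow. The members were chosen by their measured RNA: a cell was taken when at least 200 genes were detected, at most 10% of its unique molecular identifiers (UMIs, the counted RNA molecules) were mitochondrial, at least 0.2% of its UMIs came from Mpo, Elane, Prtn3 and Ctsg together, and at least 3 of these 4 genes were detected. These cells are called gate cells here, since the name does not hold for all of them: 9 had at least 1% of UMIs from basophil and mast cell proteases, and 37 in one library and 1 in the other had over 1% of UMIs from secondary granule genes, which mark the stage after the promyelocyte. By transcription factor genes, 109 cells in the former library and 6 in the latter lay on a monocyte side, described below. F13a1, a gene of monocytes and their progenitors, was found in 108 and 6 of these, so the name is uncertain for them as well. There were 7 gate cells among 7032 cells of the Disc1 WT/WT library and 220 among 7817 cells of the Disc1 LI/LI library.

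The study asked how loss of DISC1, a scaffold protein, changes microglia, the resident macrophages of the brain. One single-cell library was made from the pooled brains of 6 male Disc1 LI/LI mice, which are homozygous for an impaired Disc1 locus, and 1 from 6 pooled male wild-type littermates (Disc1 WT/WT), all at 23 weeks of age. Dissociation was carried out with actinomycin D, a transcription inhibitor, and cells were sorted as CD45low CD11b+, a gate drawn for microglia and labelled as such. The impairment is carried by every cell of these mice, and since the animals of a genotype were pooled, each genotype is 1 sample. No test between genotypes was therefore possible, no p-value is given, and the intervals are exact 95% intervals that cover counting error and not differences between mice. The intervals of levels and ratios treat pooled UMIs as independent and also leave out differences between cells.

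Neutrophils and monocytes descend from a shared progenitor that expresses the transcription factors PU.1 (Spi1) and C/EBPα. On the way to neutrophils the cell passes the promyelocyte stage, in which the primary (azurophil) granules are filled with myeloperoxidase, encoded by Mpo, and with the serine proteases neutrophil elastase (Elane), proteinase 3 (Prtn3) and cathepsin G (Ctsg). The secondary granule proteins, such as lactoferrin (Ltf) and the cathelicidin Camp, follow at the next stage, and Gfi1 and C/EBPε act on this path, whereas IRF8 and KLF4 act on the path to monocytes.

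The stretches before the start sites of the 4 gate genes are shown because these genes define the cells described here. Elane and Prtn3 are neighbours on chromosome 10, with 3072 bases between the annotated genes, and Prss57, which encodes another protease of the same granules, lies 83514 bases beyond Prtn3. Ctsg lies on chromosome 14, 14607 bases from Mcpt8, a protease gene of basophils. The sequences below were taken from the RefSeq promoters of GRCm38.p6, the build of the deposited counts. They run 5′ to 3′ on the strand of the gene, from 250 bases before the RefSeq start site to that site or to the first base that GENCODE M21 places in an exon of the gene. Capitals mark AGGAAGT, the core letters bound by PU.1 and other ETS factors, and CAACNG, the core letters bound by MYB.
Mpo, chr11:87793534-87793580, plus strand: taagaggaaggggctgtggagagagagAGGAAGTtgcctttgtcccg
Elane, chr10:79886062-79886246, plus strand: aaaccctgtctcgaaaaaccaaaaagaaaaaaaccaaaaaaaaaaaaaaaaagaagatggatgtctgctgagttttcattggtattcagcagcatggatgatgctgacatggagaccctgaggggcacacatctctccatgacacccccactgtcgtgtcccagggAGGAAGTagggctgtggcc
Prtn3, chr10:79879417-79879613, plus strand: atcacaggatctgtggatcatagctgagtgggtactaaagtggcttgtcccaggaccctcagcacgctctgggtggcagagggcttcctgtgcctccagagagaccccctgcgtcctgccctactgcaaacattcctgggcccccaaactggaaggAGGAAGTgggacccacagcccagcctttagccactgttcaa
Ctsg, chr14:56102575-56102824, minus strand: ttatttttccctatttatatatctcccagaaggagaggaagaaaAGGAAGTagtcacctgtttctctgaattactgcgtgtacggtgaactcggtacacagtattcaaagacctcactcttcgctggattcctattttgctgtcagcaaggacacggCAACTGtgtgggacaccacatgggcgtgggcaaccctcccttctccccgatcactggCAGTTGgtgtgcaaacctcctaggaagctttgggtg

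AGGAAGT stood in each of the 4 stretches, always on the strand of the gene, and began at -223 in Mpo, -84 in Elane, -94 in Prtn3 and -206 in Ctsg relative to the RefSeq start site, whereas 7.69% of 32841 mouse promoters held it within 250 bases on either strand. CAACNG stood in the 250 bases before the start of Elane, Prtn3 and Ctsg but not of Mpo, against 29.3% of all promoters. In Elane and Prtn3 it lay in, or reached into, annotated exon sequence and is not capitalized here. TTNNGCAA, letters bound by C/EBP factors, stood in none of the 4, against 9.57% of all promoters. None of the 3 stood in the 250 bases before the start of Ms4a3. All motifs were searched on both strands, no match overlapped another in these stretches, their letters were picked after the sequences had been seen, and a match is a description of the letters and not of binding.

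The Disc1 WT/WT library held 33601957 UMIs in 7038 barcodes and the Disc1 LI/LI library 47731571 UMIs in 7834 barcodes. The cell filter removed 6 and 17 barcodes, none of which met the gate. The libraries shared 12 cell barcodes, and none of these was a gate cell. The targeted gene was low in the library labelled Disc1 LI/LI: in microglia-like cells, chosen by 6 microglia genes, Disc1 stood at 20.1 counts per 1000000 UMIs (CPM) in Disc1 WT/WT (616 UMIs) and at 1.97 CPM in Disc1 LI/LI (19 UMIs). In gate cells no Disc1 UMI was found in either library, which allows up to 15.8 CPM in Disc1 WT/WT against 0.534 CPM in Disc1 LI/LI. All CPM values below are UMIs at the 3′ end of transcripts, which are not scaled by transcript length.

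Gate cells were rich in RNA. The 7 gate cells of Disc1 WT/WT held between 16111 and 35387 UMIs with a median of 27232, and the 220 of Disc1 LI/LI between 528 and 49015 with a median of 25897. The median over all kept cells was 4234.5 and 4566 UMIs. Through this depth, gate cells made up 0.0995% of cells but 0.564% of UMIs in Disc1 WT/WT, and 2.81% of cells but 11.8% of UMIs in Disc1 LI/LI. In Disc1 LI/LI, 10 gate cells lay under 5000 UMIs and 2 were chosen on fewer than 10 UMIs of the gate genes. The threshold fell into a continuum. The nearest Disc1 LI/LI cells inside it had 0.206%, 0.207% and 0.209% of their UMIs from the gate genes, and the nearest outside with at least 3 of the genes had 0.198%, 0.191% and 0.184%. In that library 19 gate cells lay between 0.2% and 0.25%, and 13 cells with at least 3 of the genes lay between 0.15% and 0.2%. In Disc1 WT/WT the lowest gate cells had 0.224% and 0.335%, and no cell with at least 3 of the genes lay below the threshold.

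**Figure D1:**
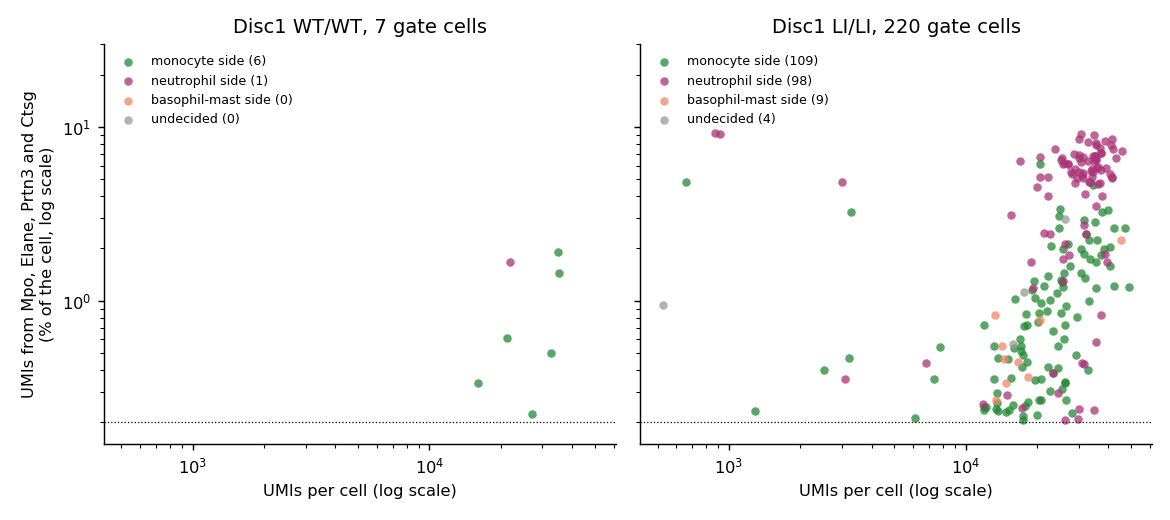
UMIs per cell (horizontal, log scale) against the percentage of UMIs from Mpo, Elane, Prtn3 and Ctsg (vertical, log scale) for each gate cell of the Disc1 WT/WT (left) and Disc1 LI/LI (right) library, coloured by the side described in the text; the dotted line is the threshold of 0.2%. The 7 Disc1 WT/WT cells lie between 0.224% and 1.91%, whereas Disc1 LI/LI cells reach 9.20%, with the neutrophil side at the top.

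The 4 gate genes are given as a description, since they chose the cells. In Disc1 WT/WT, Mpo stood at 845 CPM, Elane at 4123 CPM, Prtn3 at 3880 CPM and Ctsg at 1468 CPM over the 7 cells. Cell by cell, the 7 Disc1 WT/WT cells held 129, 36, 39, 220, 98, 249 and 10 UMIs of Elane and 56, 2, 6, 85, 2, 9 and 0 UMIs of Mpo. The cell without Mpo held 28 UMIs of Prtn3 and 23 of Ctsg. In Disc1 LI/LI, Mpo stood at 4476 CPM, Elane at 14668 CPM, Prtn3 at 9453 CPM and Ctsg at 3506 CPM over the 220 cells, and 191 of the 220 cells held all 4 genes, as did 6 of the 7 in Disc1 WT/WT. The gate percentage had a median of 1.59% and a highest value of 9.20% in Disc1 LI/LI, and a median of 0.608% and a highest value of 1.91% in Disc1 WT/WT.

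Most of this RNA lay in the gate cells. Of all UMIs of Elane in the library, 98.2% lay in the 7 gate cells of Disc1 WT/WT and 96.6% in the 220 gate cells of Disc1 LI/LI, and the lowest such share of the 4 genes was 80.8%, for Ctsg in Disc1 WT/WT. Outside the gate the RNA was thin but widespread in Disc1 LI/LI: 18.8% (17.2% to 20.5%) of its 2201 microglia-like cells held an Elane UMI, at 50.2 CPM and a median depth of 3848 UMIs, against 0.109% (0.0438% to 0.224%) of 6430 in Disc1 WT/WT, at 0.228 CPM and a median depth of 4269 UMIs. Microglia are not known to make elastase, and the source of these UMIs was not tested.

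The label was compared with marker lists that were not used by the gate. Myb, a transcription factor of proliferating progenitors, was present at 58.1 CPM in Disc1 WT/WT against 128 CPM in Disc1 LI/LI, and the nucleolar gene Npm1 was the most abundant of 15 early progenitor genes, at 998 and 1345 CPM. Of the 15 genes, 12 stood higher in gate than in other cells in Disc1 LI/LI and 4 in Disc1 WT/WT. Their sum in Disc1 WT/WT was 1694 CPM in gate, 1321 CPM in microglia-like and 1309 CPM in all other cells. In Disc1 LI/LI it was 2269, 1314 and 799 CPM. Lmo2, a transcriptional cofactor of blood progenitors, stood at 158 and 157 CPM in the gate cells. Kit, the receptor for stem cell factor, was not detected in Disc1 WT/WT and stood at 19.8 CPM in Disc1 LI/LI, where 29.5% of gate cells and 0.0454% of microglia-like cells held a UMI, and 54.1% of the cells of the neutrophil side described below. Flt3, Meis1 and Hoxa9 had 10, 11 and 9 UMIs in all 220 Disc1 LI/LI cells and none in Disc1 WT/WT, where Gata2 and Erg were also at 0. Cd34 stood at 28.5 CPM in Disc1 LI/LI, under the 154 CPM of microglia-like cells. Of 12 mature neutrophil genes, the sum was 26642 CPM in Disc1 WT/WT and 46429 CPM over the Disc1 LI/LI gate cells, against 5758 and 169866 CPM in all other cells. Nearly all of it was S100a8 and S100a9, the calprotectin genes, with 12960 CPM of S100a8 in Disc1 WT/WT against 23041 CPM in Disc1 LI/LI, and 13519 against 22570.0 CPM of S100a9. In Disc1 WT/WT 2413 of the 2455 S100a8 UMIs came from 1 cell. The receptor genes of the list were low: Cxcr2, the chemokine receptor of circulating neutrophils, stood at 9.26 CPM in the gate cells of Disc1 LI/LI against 174 CPM in all other cells, and Csf3r, the G-CSF receptor, at 33.5 against 151 CPM. Retnlg, Cxcr2, Mmp9 and Stfa2l1 were at 0 in the gate cells of Disc1 WT/WT.

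Other lineages were checked in the same way. All 12 erythroid genes were at 0 in the gate cells of Disc1 WT/WT, and their sum was 31.3 CPM in Disc1 LI/LI against 2227 CPM in all other cells, with Hbb-bs the most abundant at 8.54 CPM and Alas2, Car1, Slc4a1 and Epor at 0. The 8 megakaryocyte genes summed to 15.8 and 9.43 CPM, with Gp9 (10.6 CPM) and Itga2b (4.63 CPM) the most abundant and 6 and 4 genes at 0. The 12 dendritic cell genes summed to 206 and 446 CPM, against 4317 and 3389 CPM in all other cells, with Siglech (63.3 CPM) and Cd74 (158 CPM) the most abundant and Xcr1, H2-Aa, Flt3, Itgax, Clec9a and Ccr9 at 0 in Disc1 WT/WT. Of 14 lymphoid genes 12 were at 0 in Disc1 WT/WT and the sum of 937 CPM in Disc1 LI/LI was nearly all Nkg7 (826 CPM), which is also listed as a granule gene of progenitors. The 12 microglia genes summed to 2312 CPM in Disc1 WT/WT against 795 CPM in Disc1 LI/LI, which is 4.27% and 1.37% of their level in microglia-like cells. The level in single gate cells reached 15.7% in Disc1 WT/WT against 110% in Disc1 LI/LI, and 1 and 9 cells lay over 10%. Without these cells 6 and 211 gate cells remained.

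Gate cells were more frequent in the Disc1 LI/LI library when counted against all cells. Of all kept cells they made up 0.0995% (0.0400% to 0.205%) in Disc1 WT/WT against 2.81% (2.46% to 3.21%) in Disc1 LI/LI. Other myeloid cells were also more numerous there: immature neutrophil-like cells, chosen by Ltf, Camp, Ngp and Lcn2, numbered 61 and 2188, mature neutrophil-like cells 48 and 1293, and monocyte-like cells 78 and 1335, while microglia-like cells numbered 6430 and 2201. The shares were therefore also taken within smaller sets of cells. Among the gate and immature neutrophil-like cells together, gate cells made up 10.3% (4.24% to 20.1%) of 68 cells in Disc1 WT/WT and 9.14% (8.01% to 10.4%) of 2408 in Disc1 LI/LI. With mature neutrophil-like cells the shares were 12.7% (5.27% to 24.5%) of 55 and 14.5% (12.8% to 16.4%) of 1513, and with monocyte-like cells 8.24% (3.38% to 16.2%) of 85 and 14.1% (12.5% to 16.0%) of 1555. Among all of these myeloid cells they made up 3.61% (1.46% to 7.29%) of 194 and 4.37% (3.82% to 4.97%) of 5036. The counting intervals overlapped in each of these 4 sets, and the Disc1 WT/WT intervals, which rest on 7 gate cells, are wide. They lay apart for all kept cells, for all cells but microglia-like ones (1.16%, 0.469% to 2.38%, against 3.92%, 3.43% to 4.46%) and for gate plus microglia-like cells (0.109% against 9.09%). A share of sorted cells depends on the sort gate and on all other cells in it, and genotype and library cannot be told apart.

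**Figure D2:**
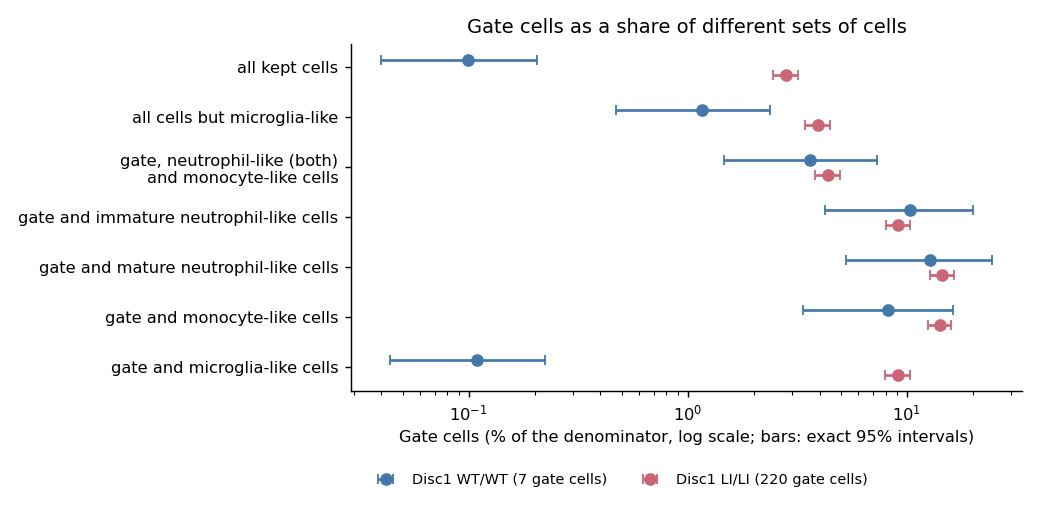
Gate cells as a percentage (log scale) of 7 sets of cells in the Disc1 WT/WT and Disc1 LI/LI libraries; points are shares and bars exact 95% intervals for counting error. The libraries lie apart where microglia-like or unassigned cells are in the denominator and overlap in the 4 sets made of gate, neutrophil-like and monocyte-like cells.

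The gate cells divided into a monocyte side and a neutrophil side. A rule made after the cells had been seen took as basophil-mast side the cells with at least 1% of UMIs from Prss34, Mcpt8 and Cpa3, and placed the others on the monocyte side where Irf8 and Klf4 together had more UMIs than Gfi1 and Cebpe, and on the neutrophil side where they had fewer. In Disc1 LI/LI 109 cells (49.5%, 42.8% to 56.3%) fell on the monocyte side, 98 (44.5%, 37.9% to 51.4%) on the neutrophil side and 9 on the basophil-mast side, and 4 were undecided. In Disc1 WT/WT 6 of 7 cells (85.7%, 42.1% to 99.6%) fell on the monocyte side and 1 on the neutrophil side. The sides are ranges along a measured difference and not types, and 5 monocyte-side and 8 neutrophil-side cells of Disc1 LI/LI lay within 1 UMI of the limit. With so few Disc1 WT/WT cells, their shares overlapped those of Disc1 LI/LI.

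The 7 Disc1 WT/WT cells can be listed in full. The 6 monocyte-side cells held 20, 7, 5, 29, 17 and 8 UMIs of Irf8, none of Gfi1, and 0, 0, 0, 1, 3 and 1 UMIs of Cebpe. They also held 44, 12, 20, 35, 29 and 43 UMIs of F13a1, which encodes coagulation factor XIII and marks monocytes and their progenitors, and no UMI of Camp or Ngp. The neutrophil-side cell held 15 UMIs of Cebpe, 4 of Gfi1, 1128 of Camp and 643 of Ngp, and none of Irf8, Klf4 or F13a1. The neutrophil-side cell thus differed from the other 6 in both sets of genes.

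Genes that the rule did not use differed between the sides in the same way in Disc1 LI/LI, as a description of cells that were sorted on related genes. F13a1 stood at 805 CPM on the monocyte side and 56.1 CPM on the neutrophil side, and was detected in 108 of 109 and 38 of 98 cells. Ms4a6c stood at 1109 against 75.8 CPM, the galectin gene Lgals3 at 1046 against 99.0 CPM, the monocyte chemokine receptor Ccr2 at 278 against 27.0 CPM, and Csf1r, the receptor for M-CSF, at 89.3 against 18.0 CPM. The opposite order held for Ms4a3, a gene typical of granulocyte-monocyte progenitors, with 298 CPM on the monocyte and 1980 CPM on the neutrophil side, for Prss57 with 26.4 and 388 CPM, for Nkg7 with 138 and 1438 CPM, and for Srgn, which encodes the proteoglycan that packs granule proteases, with 909 and 4699 CPM. Fcnb, the ficolin of neutrophil granules, stood at 74.9 and 1072 CPM. Myb was 54.9 CPM on the monocyte and 198 CPM on the neutrophil side, and Kit 6.81 and 32.5 CPM. Ly6c2, often used to mark monocytes, differed little, with 2361 and 1662 CPM, and was found in 106 of 109 and 96 of 98 cells. The share of gate gene UMIs was higher on the neutrophil side, with a median of 5.42% per cell against 0.725%, and the ranges overlapped (0.206% to 9.20% and 0.207% to 6.15%).

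**Figure D3:**
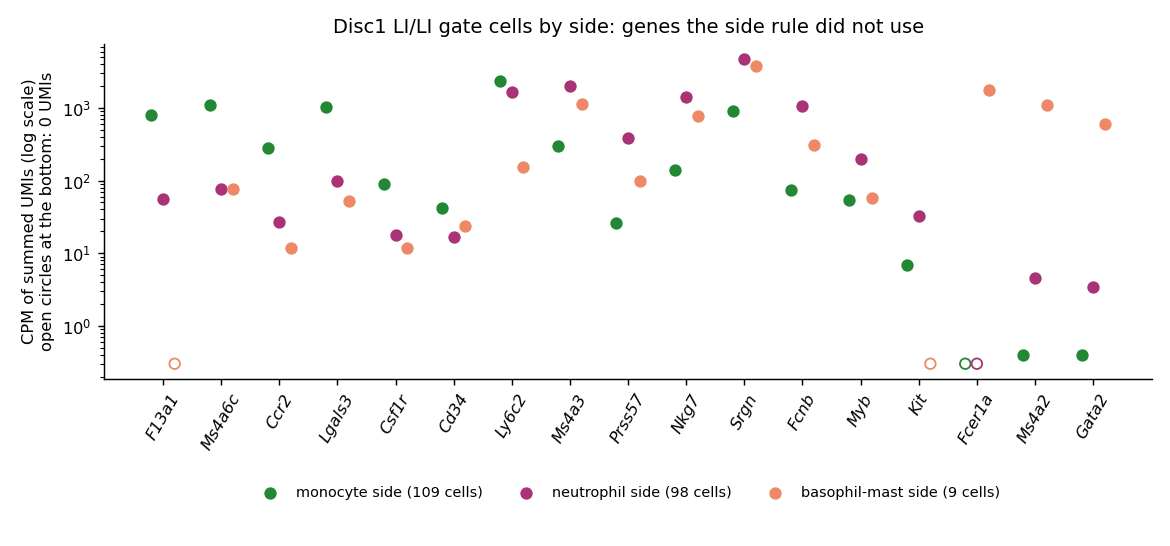
CPM of summed UMIs (log scale) of 17 genes not used by the side rule, in the monocyte-side (109), neutrophil-side (98) and basophil-mast-side (9) gate cells of Disc1 LI/LI; open circles mark 0 UMIs. Monocyte genes such as F13a1 stand highest on the monocyte side, Ms4a3 to Kit on the neutrophil side, and Fcer1a, Ms4a2 and Gata2 on the basophil-mast side.

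The basophil-mast side was small. In its 9 cells, all from Disc1 LI/LI, Prss34, Mcpt8 and Cpa3, proteases of basophils and mast cells, took 3.34% to 14.5% of UMIs with a median of 8.42%, and the next gate cell stood at 0.256%. All 9 cells held Fcer1a and Ms4a2, which encode chains of the IgE receptor, at 1771 and 1105 CPM, and the transcription factor Gata2, at 596 CPM. In the 109 monocyte-side cells these genes had 0, 1 and 1 UMIs, and in the 98 neutrophil-side cells 0, 13 (in 6 cells) and 10 (in 2 cells). Cpa3 had 143 UMIs in 6 neutrophil-side cells, up to 2272 CPM in 1 of them. Irf8 had 1 UMI and Klf4, Gfi1 and F13a1 had none in the 9 cells, while Ms4a3 stood at 1151 CPM and Ctsg at 3811 CPM. Elane was found in 5 of them and Ctsg in all 9. Outside the gate, 6 further cells of Disc1 LI/LI and 2 of Disc1 WT/WT had at least 1% of UMIs from the 3 protease genes. Prg2, the major basic protein of eosinophil granules, had 599 UMIs in 5 gate cells of Disc1 LI/LI.

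The neutrophil side was then followed from primary to secondary granules. Its 98 Disc1 LI/LI cells were split by the percentage of UMIs from Ltf, Camp, Ngp and Lcn2, with 45 cells under 0.1%, 20 between 0.1% and 1%, and 33 over 1%. Across all 220 gate cells of the library the bands held 160, 23 and 37 cells, and 42 cells lay within a factor of 2 of the lower limit and 12 of the upper. The highest cell reached 15.8%. Among the gate genes Ctsg was lower in each further band, with 7248, 4702 and 1696 CPM. Mpo stood at 9017, 8222 and 3312 CPM, whereas Elane (27448, 30357 and 15228 CPM) and Prtn3 (15704, 17765 and 8801 CPM) were highest in the middle band.

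Other genes of the neutrophil side ordered themselves along the same bands. Fcnb, which the bands did not use, stood at 363, 1614 and 1775 CPM. Cebpe was higher in each further band, with 286, 501 and 663 CPM, as was Chil3, which encodes a chitinase-like protein, with 200, 936 and 5406 CPM. S100a8, a subunit of calprotectin, stood at 9440, 39973 and 90045 CPM. The transcription factor genes Myb and Myc, Npm1 and Calr were lower in each further band. Myb stood at 269, 182 and 102 CPM, Myc at 117, 82.7 and 24.9 CPM, Npm1 at 1832, 953 and 541 CPM, and Calr, a chaperone of the endoplasmic reticulum, at 995, 680 and 281 CPM. The Poisson intervals of Npm1 and Calr did not overlap between bands, but they leave out differences between cells. Cd34 had 43 UMIs in the first band and 2 and 4 in the others. The bands are cut from a continuous quantity, and the order is one of cells and not of time. In the first band Camp stood at 138 CPM, near the 139 CPM of microglia-like cells of the same library.

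**Figure D4:**
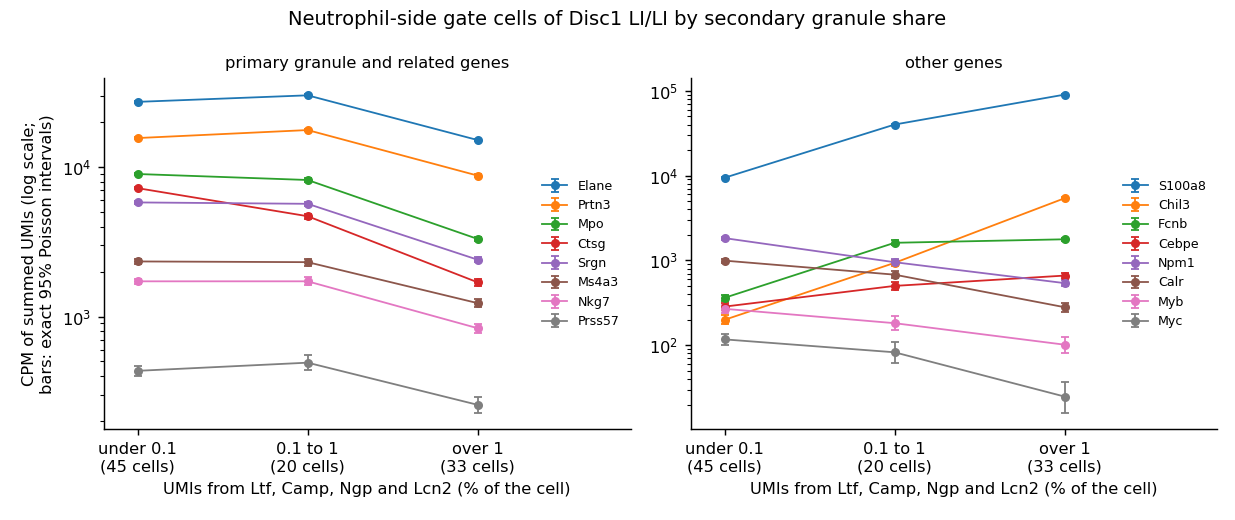
CPM of summed UMIs (log scale) in the 98 neutrophil-side gate cells of Disc1 LI/LI, in 3 bands of the percentage of UMIs from Ltf, Camp, Ngp and Lcn2; bars are exact 95% Poisson intervals. The primary granule genes (left) are lowest in the last band, and on the right S100a8, Chil3, Fcnb and Cebpe stand higher and Npm1, Calr, Myb and Myc lower from band to band.

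Within the 220 Disc1 LI/LI gate cells the levels of the 4 gate genes, which the rule itself used, were compared as a description. Spearman's rho over the 220 cells of 1 library was 0.899 between Elane and Prtn3, 0.814 between Mpo and Elane, and 0.648 between Elane and Ctsg. The summed gate genes had a rho of 0.846 with Ms4a3, 0.692 with Gfi1 and -0.44 with Irf8. Irf8 and Cebpe had a rho of -0.69, and Irf8 and F13a1 a rho of 0.746. The summed gate genes also had a rho of 0.564 with the UMIs of the cell, so depth moved with them.

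Most gate cells carried RNA of cycling cells. The proliferation markers Mki67, Top2a, Cenpf, Birc5, Ube2c, Pbk and Cdk1 were read together, and a cell with UMIs of at least 3 of these 7 was counted as cycling. All 7 gate cells of Disc1 WT/WT (59.0% to 100%) and 189 of 220 in Disc1 LI/LI (85.9%, 80.6% to 90.2%) were cycling. In Disc1 LI/LI 69 cells held all 7 genes and 9 held none. Among monocyte-like cells the share was 14.1% in Disc1 WT/WT against 17.3% in Disc1 LI/LI, among immature neutrophil-like cells 1.64% and 7.77%, and among microglia-like cells 30 of 6430 and 11 of 2201 met the rule. Gate cells were several times deeper than the others, so the share was also taken after each cell had been thinned to a fixed number of UMIs. At 5000 UMIs it was 85.7% (42.1% to 99.6%) of 7 gate cells in Disc1 WT/WT and 55.7% (48.7% to 62.5%) of 210 in Disc1 LI/LI, after leaving out 10 shallower cells, against 18.0% and 16.3% of monocyte-like, 0% and 11.3% of immature neutrophil-like and 1.00% and 1.21% of microglia-like cells. At 1000 UMIs it was 14.3% (0.361% to 57.9%) and 12.5% (8.40% to 17.7%), with 8.63% (7.17% to 10.3%) of the monocyte-like cells of Disc1 LI/LI, whose interval overlapped that of the gate cells. The larger share in gate cells was thus present at 5000 UMIs and not resolved from that of monocyte-like cells at 1000 UMIs.

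The share of cycling cells was also read along the gate. In Disc1 LI/LI 89.9% (82.7% to 94.9%) of monocyte-side, 84.7% (76.0% to 91.2%) of neutrophil-side and 5 of 9 basophil-mast-side cells were cycling, and at 5000 UMIs 65.4% (55.4% to 74.4%) and 44.7% (34.4% to 55.3%) of the monocyte-side and neutrophil-side cells, whose intervals then only just lay apart. At 1000 UMIs the shares were 16.7% (10.2% to 25.1%) and 6.25% (2.33% to 13.1%), and the intervals overlapped, as they did without thinning. Among the bands of the neutrophil side the share was 82.2%, 15 of 20 cells and 93.9%, with overlapping intervals, so cells with over 1% of secondary granule UMIs mostly met the cycling rule as well. Genes of the S phase differed in how widely they were found: of 20 listed, Ung was detected in 36.4% and Cdc6 in 50.9% of Disc1 LI/LI gate cells at the low end, and Slbp and Dut in 95.5% at the high end, against 0.363%, 0.182%, 27.7% and 5.27% of microglia-like cells. Mcm5, a subunit of the replicative helicase, was detected in 82.7% of Disc1 LI/LI gate cells and 33 of 2201 microglia-like cells, and Rrm2, a subunit of ribonucleotide reductase, in 85.0% of gate cells and 0.727% of microglia-like cells. These shares were not matched for depth, with a median of 25897 UMIs in gate and 3848 in microglia-like cells.

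**Figure D5:**
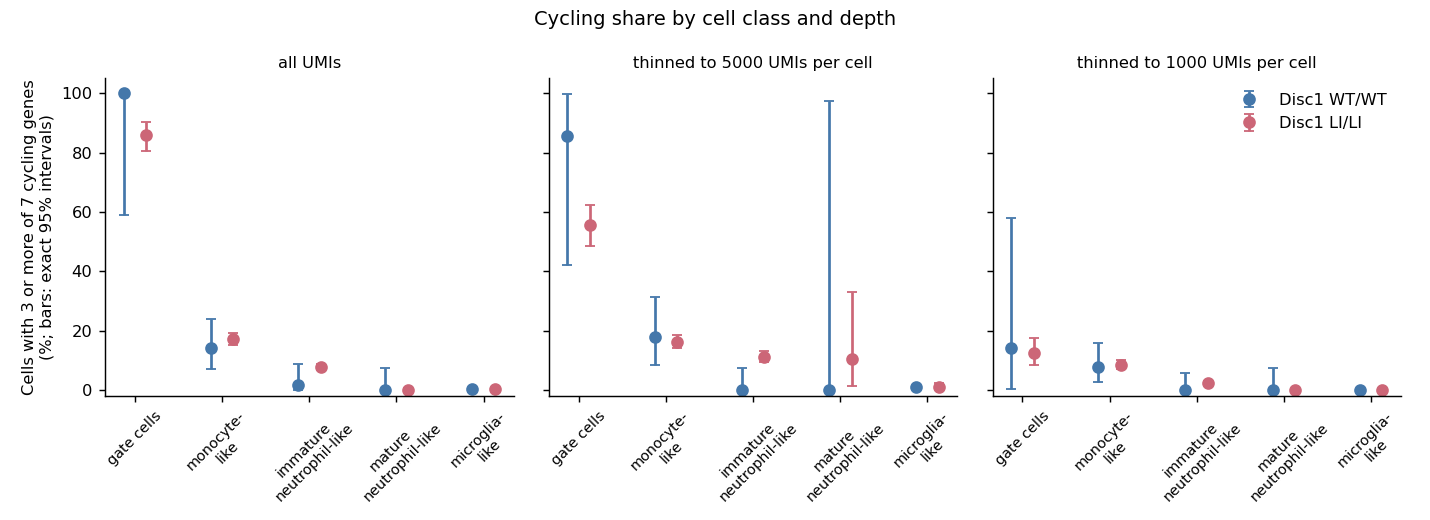
Percentage of cells with at least 3 of 7 cycling genes in 5 cell classes of the Disc1 WT/WT and Disc1 LI/LI libraries, with all UMIs (left) and after thinning to 5000 (middle) and 1000 (right) UMIs per cell; bars are exact 95% intervals, and the Disc1 WT/WT mature neutrophil-like point in the middle rests on 1 cell. Gate cells lie above the other classes with all UMIs and at 5000 UMIs, and their intervals overlap those of monocyte-like cells at 1000 UMIs.

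The gate cells were then set against all other cells of the same library. Among 2190 genes with at least 50 CPM in the gate cells of both libraries, 74 stood over 4-fold higher in gate than in other cells in both. Ranked by the lower of both ratios, with the 4 gate genes left out of the ranking, the first was Ms4a3 (238 against 0.659 CPM in Disc1 WT/WT and 1189 against 18.7 CPM in Disc1 LI/LI), followed by Dmkn (58.1 against 0.0898 and 121 against 2.07 CPM) and Myb, with 128 against 8.13 CPM in Disc1 LI/LI. The rest of the first 20 were Rgcc, Gstm1, Hells, Mcm6, Mcm2, Dut, Syce2, Cenpw, Mcm5, Mcm7, Tfec, Tk1, Fcnb, Fignl1, Nkg7, Tipin and Prim1. The minimum of 50 CPM was set on the gate cells alone, which favours high ratios, so the ranking is a description. Several of these genes were not far lower in cycling Disc1 LI/LI cells outside the gate, with Tk1, the thymidine kinase of the S phase, at 72.8 CPM there against 94.7 CPM in the gate cells, Prim1, a primase subunit, at 56.9 against 71.9 CPM, Cenpw, a centromere protein, at 77.0 against 120 CPM, and Mcm7 at 69.6 against 132 CPM, while Ms4a3 stood at 90.4 CPM there. Dmkn was found on both main sides in Disc1 LI/LI, with 95.7 CPM on the monocyte and 150 CPM on the neutrophil side and none on the basophil-mast side, and stood at 1.33 CPM in immature neutrophil-like and 5.70 CPM in monocyte-like cells. Rgcc was unequal, with 58.9 CPM on the monocyte and 961 CPM on the neutrophil side.

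Regulators and growth factor receptors were read next. Spi1, which encodes PU.1, stood at 449 CPM in both libraries, Cebpa at 47.5 and 53.8 CPM, and Cebpb, the most abundant of 14 myeloid transcription factors, at 1246 and 848 CPM. Of the 11 growth factor receptor genes Csf2ra, a chain of the GM-CSF receptor, was the most abundant, with 174 and 163 CPM, and was found in 92.3% of Disc1 LI/LI gate cells. Epor, the erythropoietin receptor, was at 0 in both libraries. The genes of the sorted surface proteins, Ptprc for CD45 and Itgam for CD11b, were present at 88.8 and 58.6 CPM in Disc1 LI/LI and detected in 80.0% and 56.4% of its gate cells. Vcam1, an adhesion molecule, stood at 104 CPM in the gate cells of Disc1 LI/LI against 14.3 CPM in its other cells, and within the neutrophil side at 167, 358 and 154 CPM through the bands.

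The last comparison set the gate cells of Disc1 LI/LI over those of Disc1 WT/WT. It rests on 189437 UMIs of 7 cells and 5617848 UMIs of 220 cells. Leaving out the gate genes, 3187 genes reached 50 CPM in at least 1 of the libraries, of which 678 (21.3%) differed by more than 2-fold, 140 (4.39%) higher and 538 (16.9%) lower in Disc1 LI/LI, with a median log2 ratio of -0.22. Scaling by TMM, a trimmed mean of ratios, moved all log2 ratios up by 0.37 and turned the split to 331 higher and 231 lower, among the 3145 genes that reached 50 CPM under that scaling. As 6 of the 7 Disc1 WT/WT cells lay on the monocyte side, the comparison was repeated with the 6 and 109 monocyte-side cells, where 489 of 3227 genes (15.2%) differed by more than 2-fold, 102 (3.16%) higher and 387 (12%) lower, with a median of -0.13. Under TMM scaling that split was 235 higher and 168 lower.

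Granule and monocyte genes were read first. Of the 14 other granule and progenitor genes with at least 50 CPM, 8 lay past 2-fold higher in Disc1 LI/LI and none lower, with a median log2 ratio of 1.17, against 4.39% of all genes past 2-fold higher. Of the 14 genes, 2 reached 50 CPM through Disc1 LI/LI alone and so had to be higher there. Of the 12 that reached it in both libraries, 6 lay past 2-fold higher. Ms4a3 stood at 238 CPM in Disc1 WT/WT against 1189 CPM in Disc1 LI/LI, with a log2 ratio of 2.32 (1.90 to 2.78), and Srgn at 839 and 2953 CPM, with 1.81 (1.59 to 2.05). In Disc1 WT/WT 20 of the 45 Ms4a3 UMIs came from the neutrophil-side cell. Among monocyte-side cells alone the differences were smaller, with Ms4a3 at 149 and 298 CPM and Srgn at 758 and 909 CPM. Of 12 monocyte genes 6 lay past 2-fold lower, against 16.9% of all genes, and 2 under TMM scaling, against 7.34%, with Irf8 at 454 and 159 CPM and F13a1 at 966 and 393 CPM, and Irf8 and Klf4 among them are also in the side rule. Of the 12 monocyte genes, 1 reached 50 CPM through Disc1 WT/WT alone and so had to be lower. Of the 11 that reached it in both libraries, 5 lay past 2-fold lower. On the monocyte side alone 2 of 13 granule and progenitor genes lay past 2-fold higher, against 3.16% of all genes, and 4 of 13 under TMM scaling, against 7.33%. Of these 13 genes, 2 reached 50 CPM through Disc1 LI/LI alone and so had to be higher. Of the 11 that reached it in both libraries, 1 lay past 2-fold higher. Of the 12 monocyte genes none lay past 2-fold on that side, with a median of -0.16 that became 0.13 under TMM scaling. There F13a1 stood at 1092 and 805 CPM, Ly6c2 at 2334 and 2361 CPM, and Ms4a6c at 1200 and 1109 CPM.

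Mitotic genes were lower more often than higher in the gate cells of Disc1 LI/LI. Of 20 genes of the G2 and M phases 11 lay past 2-fold lower and none higher, with a median log2 ratio of -1.01, against 16.9% of all genes past 2-fold lower and a median of -0.22. Of these 20 genes, 1 reached 50 CPM through Disc1 WT/WT alone and so had to be lower. Of the 19 that reached it in both libraries, 10 lay past 2-fold lower. On the monocyte side 6 of 20 lay past 2-fold lower, against 12% of all genes, with a median of -0.83, and all 20 were below 0. Under TMM scaling the counts were 4 and 2, with medians of -0.65 and -0.54, against 7.34% and 5.24% of all genes lower. Mki67 stood at 597 CPM in Disc1 WT/WT against 153 CPM in Disc1 LI/LI, Nusap1, a spindle protein, at 417 and 152 CPM, and Cenpe, a kinetochore motor, at 169 and 56.8 CPM. Cks2 had a log2 ratio above 0 over all gate cells, with 406 and 525 CPM. Of 18 genes of the S phase 1 lay past 2-fold lower and none higher in all gate cells, with a median of 0.00, and 2 higher on the monocyte side, against 16.9% lower, 4.39% higher and 3.16% higher of all genes. Both of the latter reached 50 CPM in Disc1 LI/LI alone. Histone genes of the Hist1 cluster were among the 10 lowest in both sets: Hist1h3i stood at 280 CPM in Disc1 WT/WT against 43.8 CPM in Disc1 LI/LI, and Hist1h1e on the monocyte side at 2411 and 444 CPM. Without the gate cells over 10% of the microglia level, 1 of them in Disc1 WT/WT, the log2 ratio moved from -2.68 to -1.70 for Hist1h3i, from -3.20 to -1.70 for Hist1h4k and from -2.68 to -2.01 for Hist1h2bf. The difference rests on 7 cells of 1 library and has no replicate check.

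The highest genes among all gate cells were Prss34 (2 UMIs in Disc1 WT/WT, log2 ratio 7.49, 5.63 to 10.53), Prss57 (1 UMI, 5.34, 2.86 to 10.65), Mcpt8, Cd74, G0s2, Retnlg, Ccl3, Cpa3, Vamp5 and Impdh1. Mcpt8, Retnlg and Cpa3 had no UMI in Disc1 WT/WT, and Mcpt8 and Retnlg were 32.5-fold and 26.0-fold higher against a floor of 3 UMIs over the 7 cells. The lower limits of their log2 ratios were 4.72 and 4.40. Most UMIs of Prss34 (10608 of 10634), Mcpt8 (2850 of 2888) and Cpa3 (917 of 1065) came from the 9 basophil-mast-side cells, a side without a cell in Disc1 WT/WT. On the monocyte side Prss34 had 2 UMIs in Disc1 WT/WT against 9 in Disc1 LI/LI and so ran the other way, at 11.9 and 3.61 CPM, with overlapping intervals of 1.45 to 43.1 and 1.65 to 6.84 CPM. The lowest were Hpgds, Maf, Hist1h4k, AY036118, Siglech, Hist1h2bf, Hist1h3i, Spdl1, Myo5a and Stil. Hpgds, Maf and Siglech rested on 2 of the 7 Disc1 WT/WT cells each, with 13, 10 and 12 UMIs, and without the gate cells over 10% of the microglia level the log2 ratio moved from -3.51 to -2.29 for Maf and from -2.69 to -2.04 for Siglech, and was -3.68 and -3.64 for Hpgds. AY036118 was found in all 7 cells and stood at 618 against 71.7 CPM. On the monocyte side Prss57 had no UMI in Disc1 WT/WT against 66 in Disc1 LI/LI (26.4 CPM), a log2 ratio of 0.56 against the floor of 3 UMIs. Vamp5 had a log2 ratio of 0.01 there.

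On the monocyte side the highest genes were S100a9, Cd74, Camp, Ngp, Retnlg, Ccl3, Wfdc21, Pglyrp1, G0s2 and S100a8. Of these, 8 are neutrophil genes, and RNA of neutrophils was far more abundant in the whole Disc1 LI/LI library: in all cells outside the gate S100a9 stood at 2645 CPM in Disc1 WT/WT against 83344 CPM in Disc1 LI/LI, and Camp at 369 and 12956 CPM. In the monocyte-side cells of Disc1 LI/LI S100a9 stood at 2255 CPM, under the 2818 CPM in its microglia-like cells, as did Retnlg, Wfdc21 and G0s2, with 304 against 812, 82.5 against 88.7 and 61.3 against 104 CPM. Above the microglia-like level stood Camp, with 433 against 139 CPM, Ngp, with 364 against 131 CPM, S100a8, with 2500.3 against 2327 CPM, and Pglyrp1, with 64.5 against 54.6 CPM. These pooled values rested on few cells: the median monocyte-side cell had 83.4 CPM of Camp, 82.0 CPM of Ngp and 229 CPM of S100a8, and the highest 17033, 10589 and 60855 CPM. Without the 2 monocyte-side cells over 1% of secondary granule UMIs, Camp stood at 121, Ngp at 113, S100a8 at 1373 and Pglyrp1 at 42.8 CPM, each under the microglia-like level. Of the listed genes with at least 50 CPM there, 6 of 7 mature neutrophil and 5 of 10 secondary granule genes lay past 2-fold higher and none lower, against 3.16% of all genes higher. Of these genes 5 and 4 reached 50 CPM through Disc1 LI/LI alone and so had to be higher there, and of the 2 and 6 that reached it in both libraries 1 and 1 lay past 2-fold higher. Without the 2 cells over 1% the counts were 5 of 6 and 2 of 8, with medians that moved from 3.32 to 2.20 and from 0.98 to 0.30, and they were also 5 of 6 and 2 of 8 among the 104 cells under 0.1%. These limits use Ltf, Camp, Ngp and Lcn2, which are among the secondary granule genes. The 8 genes stood at 0.737% to 2.36% of the higher of their immature and mature neutrophil-like levels. Genes of microglia, the more numerous cells of Disc1 WT/WT, ran the other way: 9 of the 12 listed had at least 50 CPM, and each of these lay past 2-fold lower in the gate cells of Disc1 LI/LI, and 7 of 9 on the monocyte side, against 16.9% and 12% of all genes. Under TMM scaling these counts were 7 and 5, against 7.34% and 5.24%. Of the 9 genes, 4 reached 50 CPM through Disc1 WT/WT alone in each set, so that they had to be lower, and 5 reached it in both libraries, of which 5 lay past 2-fold lower in all gate cells and 3 on the monocyte side. The other 3 listed genes stayed under 50 CPM, among them Tmem119, with a log2 ratio of -0.66 in all gate cells. Without the gate cells over 10% of the microglia level, 619 genes lay past 2-fold. The part of RNA from other cells in these ratios was not tested.

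The other lists were mixed. Of 14 genes of protein folding in the endoplasmic reticulum 3 lay past 2-fold higher in all gate cells and 1 on the monocyte side, with medians of 0.43 and 0.19, against 4.39% and 3.16% of all genes higher, and under TMM scaling 6 and 1, with medians of 0.80 and 0.48, against 10.5% and 7.33%, so that on the monocyte side the count was near that of all genes. In each set 1 of the 14 reached 50 CPM through Disc1 LI/LI alone and so had to be higher. Of the 13 that reached it in both libraries, 2 lay past 2-fold higher in all gate cells and 0 on the monocyte side. Creld2 stood at 31.7 and 107 CPM and Manf at 269 and 559 CPM in all gate cells. The ARP2/3 complex, formins and Cyfip1 are actin regulators that the study followed in microglia. Of 12 such genes, 4 in all gate cells and 2 on the monocyte side lay past 2-fold lower. Of all genes 16.9% and 12% did. In each set 3 of the 12 reached 50 CPM through Disc1 WT/WT alone and so had to be lower. Of the 9 that reached it in both libraries, 1 lay past 2-fold lower in all gate cells and 0 on the monocyte side. Under TMM scaling 2 and 1 of the 12 lay past 2-fold lower, against 7.34% and 5.24% of all genes. The medians of -0.66 and -0.49 were -0.29 and -0.19 under that scaling. Arpc1b was the most abundant, at 1167 and 1011 CPM. Of 10 homing and sort markers 3 lay past 2-fold lower and 1 higher in all gate cells, against 21.3% of all genes in either direction, and 1 of 9 lay lower on the monocyte side, against 12% of all genes. The higher one, Vcam1, reached 50 CPM through Disc1 LI/LI alone and so had to be higher. Of the 8 that reached it in both libraries, 3 lay past 2-fold lower and 0 higher in all gate cells. Under TMM scaling 1 of the 10 lay lower and 1 higher in all gate cells, against 17.9% in either direction. Itga4, the integrin chain that binds VCAM1, stood at 174 and 50.6 CPM in all gate cells and at 197 and 60.1 CPM on the monocyte side, with a log2 ratio there of -1.71 (-2.26 to -1.12). Of 9 immediate early genes, whose induction actinomycin D limits, 2 lay past 2-fold higher and 2 lower in both sets, against 21.3% and 15.2% of all genes in either direction, and none lower on the monocyte side under TMM scaling. In each set 1 of the 9 reached 50 CPM through Disc1 LI/LI alone and 1 through Disc1 WT/WT alone, which fixed their directions. Of the 7 that reached it in both libraries, 1 lay past 2-fold higher and 1 lower. Junb stood at 73.9 and 258 CPM and Fos at 1235 and 425 CPM.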

How the data were processed

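The authors made single-cell 3′ libraries with 10x Genomics chemistry, and the submitters' processing notes and the file headers name STAR, Cell Ranger 6.1.2, Seurat 3.0.1 and mm10. The deposited values are raw UMI counts per gene and barcode for 1 library per genotype, without normalization. Which of the chips and kit versions named in the methods was used for each library is not given in the sources used here.

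The members and gene lists were chosen with earlier results of these data known, and the side rule after the gate cells had been seen. Cells were filtered, gated and assigned to classes with pandas 2.3.3, scipy 1.17.1 and numpy 2.4.6 under Python 3.11.15. The classes, taken in order after the gate, needed at least 0.5% of UMIs and 3 genes of Ltf, Camp, Ngp and Lcn2 (immature neutrophil-like), 0.5% and 3 of 6 microglia genes that include P2ry12, Tmem119 and Cx3cr1 (microglia-like), 0.1% and 2 of Ly6c2, Ccr2, F13a1 and Ms4a4c (monocyte-like) or 1% and 3 of S100a8, S100a9, Retnlg and Csf3r (mature neutrophil-like). UMIs were summed over cells and divided by their total. Shares have Clopper-Pearson and levels Poisson intervals, and a gene at 0 was set to a floor of 3 UMIs. Ratios were tested on simulated Poisson counts with known folds, which hold no differences between cells. Named genes were list members, the 10 highest and 10 lowest ratios with at least 50 CPM, and the 20 highest in gate over other cells apart from the gate genes. Doublets were not removed; scores came from Scrublet (scanpy 1.11.5). Alternatives used TMM (edgeR 4.0.16) and median-of-ratios (DESeq2 1.42.0) factors in R 4.3.3. Some genes of the lists are not reported here. Figures were drawn with matplotlib 3.10.9.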

Additional observations from a re-analysis of the deposited data

How the results depend on the processing

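With 1 pooled library per genotype, counting intervals say nothing of differences between mice, and 7 Disc1 WT/WT gate cells limit every comparison. Those of levels and ratios also leave out differences between cells. No paired analysis was possible because each genotype has 1 library. The share of gate cells was higher in Disc1 LI/LI under each alternative that left gate cells in both libraries. In Disc1 LI/LI it was 3.25%, 2.05% and 1.69% at gates of 0.1%, 0.5% and 1%, 2.44% with all 4 genes, 3.78% of cells with at least 1000 genes and 1.84% at 1000 UMIs. Leaving out gate cells with 3 of 12 microglia markers left 0% (Disc1 WT/WT) and 0.328% (Disc1 LI/LI), 56.0% of them cycling, so no ratio could be formed. The median microglia level of gate cells was 1.26% and 0.650% of that in microglia-like cells. In those 25 cells the summed CPM was 281 for microglia (795 in all gate cells), 5174 for monocyte (4296), 67703 for mature neutrophil (46429), 11303 for basophil and mast cell (2846) and 1533 for early progenitor genes (2269). The cycling share at 1000 UMIs was 14.3% (Disc1 WT/WT) and 12.5% (Disc1 LI/LI), 55.7% in the latter at 5000 UMIs, and 91.8% there when 2 genes sufficed. Genes past 2-fold numbered 678, and 3000 without a filter on low counts and 1645 at 20 CPM. Without the Disc1 WT/WT neutrophil-side cell they numbered 825. Bands of 0.2% and 2% placed 78.6% of Disc1 LI/LI gate cells under the lower limit (72.7% before). Among 20 named genes and 13 alternatives, 251 of 255 ratios kept direction and 2-fold size. These genes were the 10 highest and 10 lowest ratios of the same cells, which favours such a count. The count filters left their ratios unchanged and the scaling factors moved each log2 ratio by 0.37, so the tally is a description. Vamp5 on the monocyte side and Maf at a gate of 0.5% fell below 2-fold. Prss57 on the monocyte side, with 0 UMIs in Disc1 WT/WT, lay below 2-fold against the floor. Prss34 changed sign, to -1.73 on the monocyte side. The monocyte-side (with its secondary granule limits), microglia-level, 5000 UMI and 10 UMI alternatives were chosen after seeing the data. The 5% highest Scrublet scores held 9 Disc1 LI/LI and 0 Disc1 WT/WT gate cells.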
